A study of Mus musculus with 265 samples.

Results

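Integrins, the hyaluronan receptor CD44, focal adhesion kinase and the chemokine receptors CXCR4 and CCR7 were followed at the level of chromatin accessibility in single mouse pre-B cells. The members were 9 genes, Itga4, Itga5, Itgb1, Itgb2, Itgal, Ptk2, Cd44, Cxcr4 and Ccr7, taken by name with earlier results of these data known. A region of the deposited single-cell ATAC-seq matrix went to whichever protein-coding gene (GENCODE vM21) had its start site, taken as the 5′ end of the gene, nearest to the middle of the region and within 50 kb. This gave 16 of 20103 regions (mm10), which belonged to 7 of the 9 genes. Cxcr4 had 5 regions, Itga4, Itga5, Itgb1, Itgal and Cd44 had 2 each, and Itgb2 had 1. No region was assigned to Ptk2 or Ccr7, so that nothing could be measured for Ccr7, and Ptk2 is described from 1 region inside its gene body.

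All cells were B3 cells, a mouse pre-B cell line with an inducible ERt2-Ikaros, in which Ikaros is joined to a hormone-binding part of the estrogen receptor, and this single line is the only model. The 0-hour cells were taken before 4-hydroxytamoxifen, which brings the fusion protein into the nucleus, and the 24-hour cells after 24 hours of it. No control without the fusion protein was analysed here, so that time, tamoxifen and Ikaros cannot be told apart. Single cells were captured on the Fluidigm C1, with 2 runs for each time-point, and Tn5 transposase cut and tagged their open DNA. The matrix held 48 and 47 cells for 0-hour runs 1 and 2, and 60 and 72 cells for 24-hour runs 1 and 2. The runs were used as the replicates (n = 2 per time-point), and the sources used here do not say whether they came from separate cultures, so that p-values measure the spread between these runs.

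Integrins are pairs of an alpha and a beta chain. In B cell precursors α4β1 (Itga4 with Itgb1) binds VCAM-1 and fibronectin in the bone marrow stroma, α5β1 (Itga5 with Itgb1) binds fibronectin, and αLβ2 (Itgal with Itgb2) binds ICAM-1. Focal adhesion kinase (Ptk2) relays integrin signals, CXCR4 holds precursors near CXCL12 made by stromal cells, and CCR7 guides lymphocytes into lymph nodes. Ikaros (Ikzf1) is a zinc-finger transcription factor that binds DNA with a GGGAA core and drives pre-B cells towards differentiation.

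The runs summed to 164357, 92639, 122586 and 142611 counts, with a median of 2898, 1787, 1839.5 and 1676 counts per cell. No value was above 2. Regions within 1 kb of any protein-coding start site took 51.0% and 48.5% of the counts at 0 hours and 58.3% and 66.4% at 24 hours, so that regions farther from start sites held a smaller share of the signal at 24 hours over the whole matrix. Members are therefore read against all regions at the same kind of distance, a split at 1 kb that was chosen after the values were seen. Of 14 pre-B markers 13 had a region, all but Rag1, and their summed signal was 2430 and 2070 CPM at 0 hours and 2500 and 1960 at 24 hours. CPM are counts scaled to a common total per run after TMM normalization in edgeR. Among them, Pax5 and Ebf1, factors of B cell identity, overlapped between the time-points. Igll1, a surrogate light chain gene (347 and 215 at 0 hours, 72.5 and 94.8 at 24 hours), the IL-7 receptor gene Il7r (99.2 and 88.5, then 9.06 and 15.8) and Cd79a (120 and 101, then 72.5 and 55.3) were higher in both 0-hour runs, and Foxo1 (28.3 and 37.9, then 63.4 and 94.8) in both 24-hour runs, and none of these passed the test (edgeR). Of the markers of other cell types, 3 of 8 T cell genes had a region (summed 177 and 139 at 0 hours, 81.5 and 63.2 at 24 hours, with Tcf7 at 92.1 and 101 at 0 hours and at 0 and 23.7 at 24 hours), 1 of 8 myeloid genes (Lyz2, at 14.2, 50.6, 0 and 7.9), 1 of 4 erythroid genes (Klf1, from 25.3 to 109), 1 of 2 NK genes (Klrb1c, from 392 to 561), 2 of 3 plasma cell genes (184 and 164 at 0 hours, 254 and 466 at 24 hours) and 0 of 3 stromal genes. Defining genes such as Cd3e, Cd4, Csf1r, Gata1, Ncr1 and Sdc1 had no assigned region. The T cell sum differed through Tcf7, since Cd3d and Lck overlapped between the time-points. The 0-hour values of Lyz2 were both higher, and those of Klf1 (70.9 and 25.3, then 109 and 71.1), Klrb1c (446 and 392, then 535 and 561) and the plasma cell sum were both lower. These genes separated by time-point alongside the members, and their part in the results was not tested.

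The sequences of the regions on which the results turned are shown first, each as the middle 150 bp of the region read from the mm10 reference along the strand of the gene. They are the 5 member regions whose 2 time-points did not overlap, the Ptk2 region, and the regions at the Itga4 and Cxcr4 start sites for contrast. Capitals mark GGGAA, the Ikaros core, and TGTGGT, a RUNX core, on either strand (TTCCC and ACCACA on the other strand). The Itga4 start-site window ends at the base before the gene, which left 104 bp.
Itga4, 610.5 bp upstream, chr2:79254741-79254890, plus strand: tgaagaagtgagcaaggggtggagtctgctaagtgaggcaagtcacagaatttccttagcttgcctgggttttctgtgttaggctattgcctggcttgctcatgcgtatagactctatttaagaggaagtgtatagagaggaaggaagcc
Itga4, start site, chr2:79255322-79255425, plus strand: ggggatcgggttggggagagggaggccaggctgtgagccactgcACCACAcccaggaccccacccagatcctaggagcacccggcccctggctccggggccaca
Itga5, 10.3 kb upstream, chr15:103377030-103377179, minus strand: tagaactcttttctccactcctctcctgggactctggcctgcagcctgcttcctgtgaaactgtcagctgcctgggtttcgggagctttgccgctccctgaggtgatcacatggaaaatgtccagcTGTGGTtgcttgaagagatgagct
Itga5, 11.7 kb upstream, chr15:103378415-103378564, minus strand: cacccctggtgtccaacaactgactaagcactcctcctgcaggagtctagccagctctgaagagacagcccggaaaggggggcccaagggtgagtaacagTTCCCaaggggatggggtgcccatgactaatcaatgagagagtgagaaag
Itgal, 6.76 kb upstream, chr7:127289425-127289574, plus strand: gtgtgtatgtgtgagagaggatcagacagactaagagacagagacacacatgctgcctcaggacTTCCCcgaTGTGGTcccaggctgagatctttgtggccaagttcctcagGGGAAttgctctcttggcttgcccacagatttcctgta
Itgal, 17.8 kb downstream of the start, chr7:127313987-127314136, plus strand: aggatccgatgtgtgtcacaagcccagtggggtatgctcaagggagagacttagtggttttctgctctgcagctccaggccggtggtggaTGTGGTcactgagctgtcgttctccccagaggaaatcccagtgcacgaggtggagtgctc
Ptk2, intron, chr15:73263960-73264109, minus strand: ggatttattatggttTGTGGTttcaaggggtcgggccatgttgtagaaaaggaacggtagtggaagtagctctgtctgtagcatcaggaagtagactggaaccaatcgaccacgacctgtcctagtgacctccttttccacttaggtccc
Cxcr4, 277 bp upstream, chr1:128592496-128592645, minus strand: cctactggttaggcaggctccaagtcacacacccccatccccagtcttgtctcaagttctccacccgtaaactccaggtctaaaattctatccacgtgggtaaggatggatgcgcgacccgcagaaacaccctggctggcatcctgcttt

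**Figure D1:**
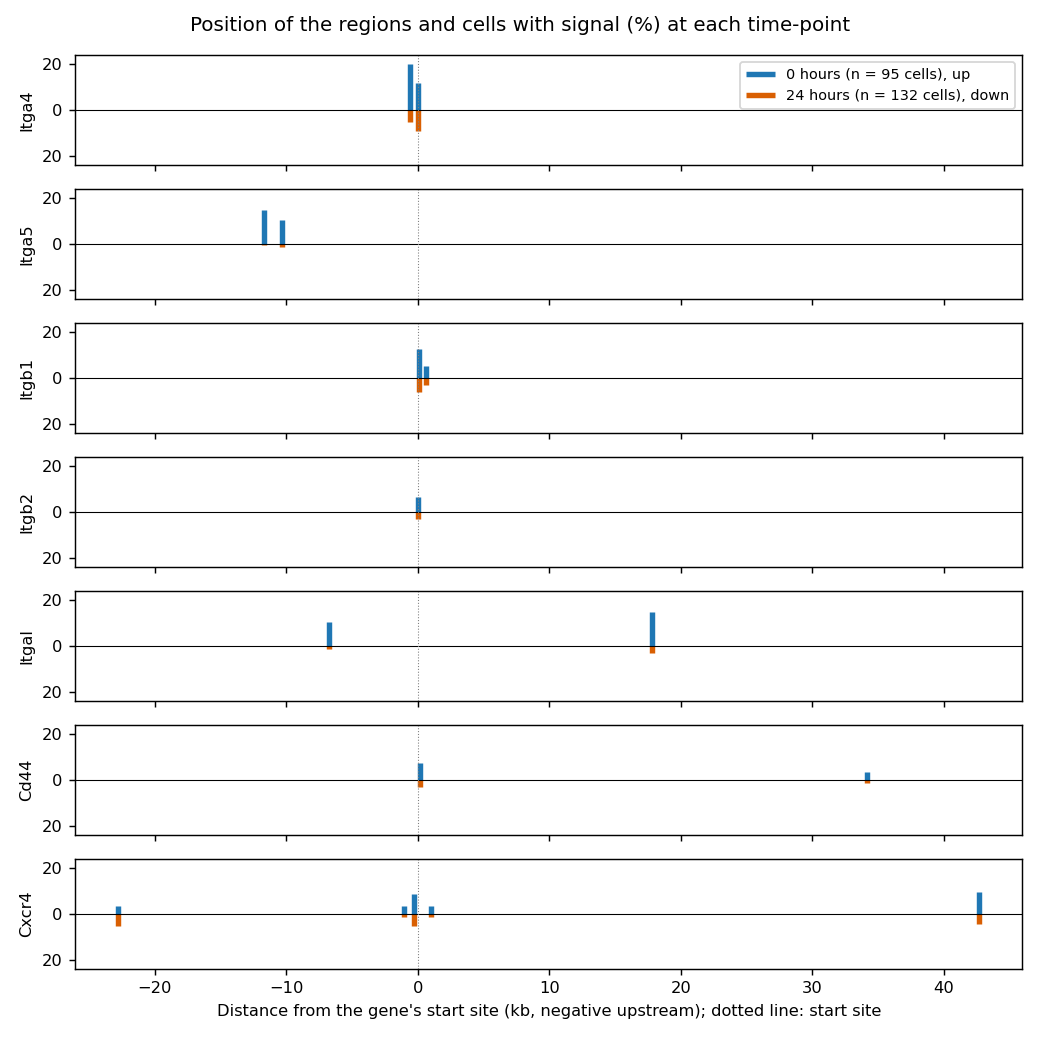
Each panel is 1 gene, with the distance of its regions from the start site on the x axis (kb, negative upstream) and the percentage of cells with signal on the y axis, drawn upwards for 0 hours (95 cells) and downwards for 24 hours (132 cells). The regions of Itga5 and Itgal lie away from the start sites and have tall upward and short downward bars, while the regions at the start sites of Itga4, Itgb1 and Cxcr4 have bars both ways.

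To ask which adhesion genes changed their accessibility over 24 hours, the counts of all regions of a gene were summed in each run and tested with edgeR over all 9894 genes that had a region. All 7 member genes had an estimate below 0, though that of Cxcr4 turned to 0.58 without 0-hour run 1, 0.60 without 24-hour run 2 and 0.021 with DESeq2, that of Itgb1 to 0.34 in thinned cells and that of Itgb2 to 0.005 without 0-hour run 1, and none passed the adjusted threshold of 0.05. Over all genes, 0.192% passed as higher at 0 hours and 0.162% as higher at 24 hours. The lowest adjusted p-values belonged to the alpha chains Itga5 and Itgal, whose signal at 24 hours was a small part of that at 0 hours, and those of the beta chains and Cxcr4 were far from the threshold. In 4 of the 7 genes (Itga4, Itga5, Itgal and Cd44) the 0-hour values both exceeded the 24-hour ones, against 21.9% of all genes, and in 0 did both 24-hour runs lie higher, against 21.5%. The median log2 change was −1.0 over the member genes and 0.04 over all genes, and without 0-hour run 1 these were −0.56 and 0.11. The background of all genes mixes near and far regions, whereas all regions of Itga5 and Itgal lay beyond 1 kb, where the background over single regions was 33.2% with both 0-hour runs higher and a median of −0.43. Since the members were chosen with earlier results of these data known, their shares and medians beside the background are a description and no test.

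Itga5, the α5 chain of the fibronectin receptor, had a normalized signal of 163 and 126 CPM in 0-hour runs 1 and 2, and of 18.1 and 7.90 in 24-hour runs 1 and 2. Both 0-hour runs were high and the 24-hour runs were near the limit of detection, with 2 counts and 1 count. The log2 change was −3.42 ± 0.89 (SE, n = 2 runs per time-point, edgeR quasi-likelihood test, adjusted p = 0.052). Because only 3 counts were left at 24 hours, the size is better given as a ratio of detections, where a detection is a cell with signal in a region. Itga5 had 24 detections at 0 hours and 3 at 24 hours, which relative to all detections of each time-point was 8.22-fold higher at 0 hours, with an exact 95% interval from 2.50 to 42.7 that covers counting error only. The matrix holds only regions detected in at least 5 cells. Each Itga5 region had signal in fewer than 5 cells at 24 hours, so each was kept only through its 0-hour cells. The ratio is therefore a description and no test of a change. The adjusted p moved to 0.042 with the size factors of DESeq2 and ranged up to 0.73, in thinned cells, over the other alternatives that used all runs. The log2 change was −2.55 in thinned cells and −4.05 without 24-hour run 1, which leaves 1 run at 24 hours.

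Itgal, the αL chain of LFA-1, had 170 and 215 CPM at 0 hours and 36.2 and 31.6 at 24 hours. The runs within each time-point were close to each other and the time-points did not overlap. The log2 change was −2.46 ± 0.70 (SE, n = 2 runs per time-point, edgeR, adjusted p = 0.074), and the adjusted p was 0.024 without 24-hour run 1 and ranged up to 0.70, without 0-hour run 2, over the other alternatives. Itgal had 24 detections at 0 hours and 6 at 24 hours, a 4.11-fold higher share of all detections at 0 hours (exact 95% interval from 1.64 to 12.3). Its regions, too, each had signal in fewer than 5 cells at 24 hours and were kept only through their 0-hour cells.

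Itga4, the α4 chain of VLA-4, had 255 and 202 CPM at 0 hours and 145 and 86.9 at 24 hours. All 0-hour values lay above all 24-hour values, and the log2 change of −1.0 ± 0.52 (SE) did not pass the test (edgeR, adjusted p = 0.43). Its 2 regions behaved differently, as described with the regions.

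The beta chains had smaller estimates. Itgb1, the chain shared by α4β1 and α5β1, had 113 and 88.5 CPM at 0 hours and 90.6 and 71.1 at 24 hours, which overlap (log2 change −0.34 ± 0.69, edgeR, adjusted p = 0.91). Itgb2, the partner of αL, had 56.7 and 25.3 at 0 hours and 27.2 and 23.7 at 24 hours, which also overlap (−0.74 ± 1.10, adjusted p = 0.86). All regions of Itgb1 and Itgb2 lay within 1 kb of the start site, as did those of Itga4, and all regions of Itga5 and Itgal lay beyond it. For Itga5 and Itgal against the beta chains, kind of chain and distance therefore cannot be told apart. The alpha and beta chains were not tested against each other.

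Among the other receptors, Cd44 had 78.0 and 37.9 CPM at 0 hours and 27.2 and 23.7 at 24 hours. The time-points did not overlap, but the 0-hour runs lay farther from each other than the lower one did from the 24-hour runs (log2 change −1.22 ± 1.00, edgeR, adjusted p = 0.68, and −0.56 without 0-hour run 1). Cxcr4, the receptor for CXCL12, had 191 and 101 CPM at 0 hours and 236 and 71.1 at 24 hours. The runs of 1 time-point differed more than the time-points, and the log2 change was −0.01 ± 0.52 (adjusted p = 0.998). Its detections, 26 at 0 hours and 24 at 24 hours, gave a ratio of 1.11 with an exact 95% interval from 0.614 to 2.03 for counting error alone, and the log2 change ran from −1.10 to 0.60 with 1 run left out.

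**Figure D2:**
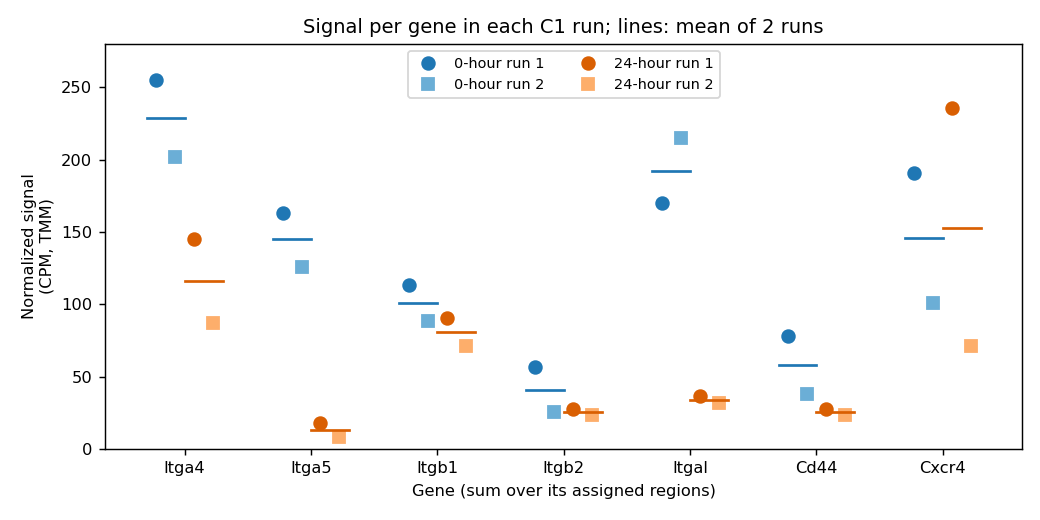
The TMM-normalized signal in CPM (y axis) is plotted for each of the 7 genes with an assigned region (x axis), with 1 point per C1 run and a short line at the mean of the 2 runs of a time-point. For Itga5 and Itgal the 24-hour points (from 7.90 to 36.2) lie well under the 0-hour points (from 126 to 215), and for Cxcr4 the points of both time-points are mixed.

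Levels were compared between genes per kb of assigned region, since summed widths ran from 113 bp for Itgb2 to 702 bp for Cxcr4. At 0 hours Itgal (577 and 728 CPM per kb), Itga5 (688 and 533) and Itga4 (591 and 468) lay highest. Itgb2 (502 and 224), Itgb1 (337 and 263), Cd44 (300 and 146) and Cxcr4 (273 and 144) followed, and in this order the runs of each gene overlapped those of the next. At 24 hours Itga4 (336 and 201), Itgb1 (270 and 212), Itgb2 (241 and 210) and Cxcr4 (336 and 101) lay highest, again with overlapping runs. Itgal (123 and 107) overlapped with Cxcr4, and Cd44 (105 and 91.1) and Itga5 (76.5 and 33.3) came last without overlap to the gene before them. Differences in level between genes were not tested.

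Single regions were sparse, and the share of cells with signal in a member region was at most 25.0% in any run. The mean share over the 16 regions was 12.1% and 5.85% in 0-hour runs 1 and 2, and 4.79% and 2.43% in 24-hour runs 1 and 2. Of these runs, 0-hour run 1 held the most counts per cell. After each cell was thinned to 837 counts, which left out 1 cell of 0-hour run 2, 13 of 24-hour run 1 and 9 of 24-hour run 2, the mean shares were 4.22%, 2.83%, 2.45% and 1.21%, lower in each run and in the same order. At least 1 member region had signal in 38 of 48, 27 of 47, 33 of 60 and 23 of 72 cells, or 79.2%, 57.4%, 55.0% and 31.9%, and in 48.5%, 36.5%, 35.0% and 18.4% of the thinned cells. No cell had signal in more than 6 of the 16 regions.

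None of the 16 member regions passed the test over all regions (edgeR, adjusted p from 0.19 to 0.99), and 4 had an unadjusted p under 0.05, all lower at 24 hours. DESeq2 also called 0 of them and gave 3 unadjusted p-values under 0.05, beside 1085 over all 20103 regions in either direction. Over all 20103 regions edgeR called 0.0149% as higher at 0 hours and 0.0398% as higher at 24 hours, and 7% and 5.11% had an unadjusted p under 0.05 in these directions. The 2 time-points did not overlap in 5 member regions, all with both 0-hour runs higher, which is 5 of 16 against 25.7% of all regions. In 0 of 16 both 24-hour runs lay higher, against 19.3% of all regions. By distance, this was 1 of 8 member regions within 1 kb of the start site, where all such regions gave 13.1%, and 4 of 8 farther away, where all such regions gave 33.2%. The median log2 change was −0.42 over the 8 near members against 0.33 over all 8786 near regions, and −1.49 over the 8 far members against −0.43 over all 7973 far regions. Over all 16 members it was −0.75 and depended on single runs, with −1.76 without 24-hour run 1, −0.24 without 24-hour run 2 and −0.36 without 0-hour run 1. Among the regions that did not overlap, those of Itga5 and Itgal were in the matrix only through their 0-hour cells. The members were also chosen with earlier results of these data known, so these shares and medians are a description.

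**Figure D3:**
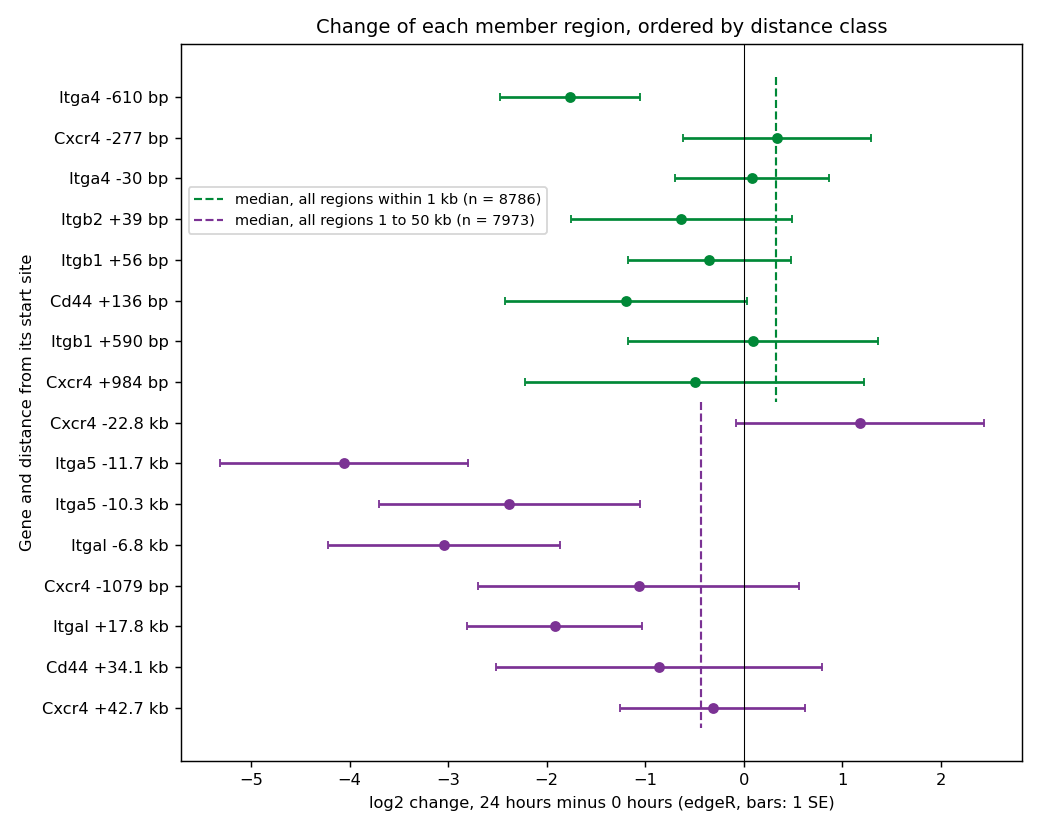
The log2 change from 0 to 24 hours with its standard error (x axis) is drawn for each of the 16 member regions (y axis), the 8 within 1 kb of a start site at the top and the 8 farther away below. Dashed lines give the medians of all regions of each class, 0.33 and −0.43, and the 2 Itga5 and 2 Itgal regions lie to the left of theirs, from −1.92 to −4.06.

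Both Itga5 regions were outside the gene, 10.3 and 11.7 kb upstream of its start site on the minus strand of chromosome 15, and their nearest other protein-coding start site was that of Zfp385a, 37.0 and 38.4 kb away. None of the regions analysed here lay within 1 kb of the Itga5 start site. The farther one (chr15:103378425-103378554) had signal in 9 of 48, 5 of 47, 1 of 60 and 0 of 72 cells in the order of the runs, or 18.8%, 10.6%, 1.67% and 0%, where a count of 0 allows a share of up to 4.17% by the floor of 3 counts and up to 4.99% by the exact 95% interval. It had 84.9, 73.1, 8.09 and 0 CPM, and 14.4-fold more of the detections at 0 hours with a wide exact interval from 2.19 to 608. This was the lowest adjusted p of any member region at 0.19 (edgeR), and over the alternatives it ranged from 0.030 without 24-hour run 1 to 0.86 with DESeq2. The log2 change was −4.06, −6.42 without 24-hour run 1, which leaves only the run with no count, and −1.50 in thinned cells. The nearer one (chr15:103377051-103377157) had signal in 7, 3, 1 and 1 cells, or 14.6%, 6.38%, 1.67% and 1.39%, with 54.6, 31.3, 8.09 and 7.33 CPM. The 0-hour values both exceeded the 24-hour ones, while the log2 change of −2.38 ± 1.32 (SE) had an adjusted p of 0.48. Of the 12 and 15 cells with signal in these regions, 5 had signal in both, all at 0 hours, where 1.65 would be given by the shares of each run taken separately. Here and below, such expected numbers take no account of the counts per cell, which differed between cells of a run. They therefore do not measure whether regions are open together.

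The Itgal regions were 6.76 kb upstream and 17.8 kb inside the gene on chromosome 7. The upstream one (chr7:127289427-127289572) lies within the lincRNA gene Gm31897, and the inner one (chr7:127313987-127314135) overlaps a coding exon of Itgal by 77 bases and lies 4543 bp past the start of another annotated Itgal transcript. The upstream region had signal in 6, 4, 0 and 2 cells (12.5%, 8.51%, 0% and 2.78%) and 66.7, 73.1, 0 and 14.7 CPM. The 0 in 24-hour run 1 allows a share of up to 5.0% by the floor and up to 5.96% by the exact interval. Its detections were 5.14-fold higher at 0 hours, with an exact interval from 1.10 to 48.2 (edgeR, adjusted p = 0.28). The inner region had signal in 8, 6, 3 and 1 cells (16.7%, 12.8%, 5.0% and 1.39%) and 78.8, 104, 32.3 and 14.7 CPM, a log2 change of −1.92 ± 0.89 (adjusted p = 0.36). In both regions the 0-hour runs were the high ones and the time-points did not overlap. Signal in both occurred in 4 cells, all at 0 hours, where 1.54 would be given by the shares of each run.

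The 2 Itga4 regions lie 581 bp apart on chromosome 2, counted between their middles. The upstream one (chr2:79254742-79254889), 610.5 bp before the start site, was the member region detected in the most cells, 26 in all. It had signal in 12, 7, 4 and 3 cells (25.0%, 14.9%, 6.67% and 4.17%) and 139, 125, 40.4 and 36.7 CPM. The 0-hour runs were alike, the 24-hour runs were alike, and the time-points did not overlap (log2 change −1.76 ± 0.71, edgeR, adjusted p = 0.30). The thinned shares were 10.1%, 8.59%, 3.84% and 2.21%. The region over the start site (chr2:79255255-79255538), which reaches into the first exon, had signal in 9, 2, 8 and 4 cells (18.8%, 4.26%, 13.3% and 5.56%) and 78.8, 41.8, 88.9 and 44.0 CPM. Here the time-points overlapped (log2 change 0.08 ± 0.78, adjusted p = 0.98). The difference between these neighbouring regions was not tested, and 7 cells had signal in both, where the run shares would give 3.25.

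The regions at the other start sites overlapped between the time-points in CPM. Itgb1 had a region over its first exon (chr8:128685613-128685806) with signal in 10, 2, 5 and 3 cells and 91.0, 31.3, 64.7 and 36.7 CPM (log2 change −0.35 ± 0.82, edgeR, adjusted p = 0.91). Its high value came from 0-hour run 1, and the estimate turned to 0.69 without that run and to 0.44 in thinned cells. A second Itgb1 region in the first intron had signal in 1, 4, 1 and 3 cells, and 3 cells had signal in both Itgb1 regions, where the run shares would give 0.587. The single Itgb2 region (chr10:77530235-77530347), 39 bp past the start, had signal in 5, 1, 2 and 2 cells, and the Cd44 region 135.5 bp past the start (chr2:102901469-102901590) in 5, 2, 1 and 3 cells. In the Cd44 region the shares of cells, 10.4%, 4.26%, 1.67% and 4.17%, did not overlap, by a margin far smaller than their exact intervals, while the CPM of 48.5, 20.9, 8.09 and 22.0 did (log2 change −1.20 ± 1.23, edgeR, adjusted p = 0.75). Without 0-hour run 1 this change was −0.41, without 24-hour run 1 −0.72 and without 24-hour run 2 −2.06. The other Cd44 region, 34.1 kb inside the gene, had signal in 2, 1, 2 and 0 cells. Signal in both Cd44 regions occurred in 0 cells, where the run shares would give 0.284.

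Cxcr4 had the most regions, spread from 22.8 kb upstream to 42.7 kb downstream of its start site on chromosome 1. The region 277 bp upstream (chr1:128592455-128592685) had signal in 6, 2, 4 and 3 cells and 48.5, 20.9, 56.6 and 36.7 CPM (log2 change 0.34 ± 0.95, edgeR, adjusted p = 0.93). The region 42.7 kb downstream, beyond the end of the gene (chr1:128549549-128549632), had signal in 6, 3, 5 and 1 cells and 54.6, 41.8, 64.7 and 14.7 CPM (−0.32 ± 0.94, adjusted p = 0.93). Both were detected in 15 cells. The region 22.8 kb upstream (2, 1, 5 and 2 cells) had the highest estimate of all members, 1.18 ± 1.26 (adjusted p = 0.76), and 24-hour run 1 held 7 of its 9 counts at 24 hours. The others, 984.5 bp inside and 1.08 kb upstream, were detected in 5 cells each, the fewest that any region of the matrix had.

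Ptk2, focal adhesion kinase, extends over 218 kb, and 1 region lay in an intron (chr15:73263969-73264099), 159 kb from the 5′ end of the gene and so outside the rule. It overlaps the antisense gene 1700085D07Rik and lies 20.8 kb upstream of a start of a shorter Ptk2 transcript. It had signal in 7 of 48 and 4 of 47 cells at 0 hours (14.6% and 8.51%) and in 0 of 60 and 0 of 72 cells at 24 hours. The 0-hour signal was 60.6 and 73.1 CPM. Against a floor of 3 detections over the 24-hour cells the ratio was 3.77, the exact 95% interval of the ratio begins at 2.58-fold higher at 0 hours, and by the same floor 0 of 132 cells allows a share of up to 2.27%. The edgeR test over all regions gave an adjusted p of 0.16. With no cell at 24 hours, the region was in the matrix only through its 0-hour cells, so its ratio is a description.

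**Figure D4:**
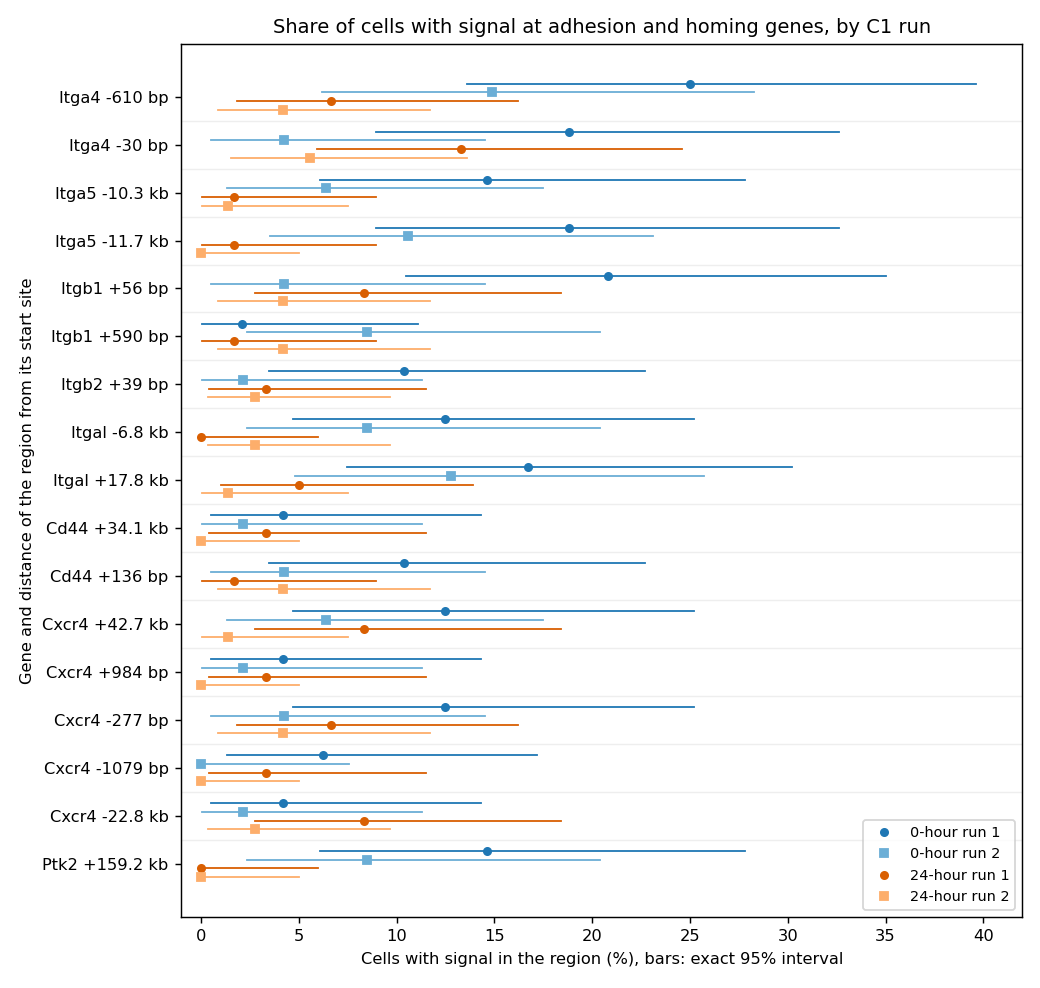
The percentage of cells with signal (x axis) with its exact 95% interval is shown for each of the 16 member regions and the Ptk2 intron region (y axis, with the distance from the start site), with 1 point per C1 run. The 0-hour points lie to the right of both 24-hour points in the Itga4 region at −610 bp, in the Itga5, Itgal and Ptk2 rows and, narrowly, in the Cd44 region at +136 bp, and the intervals of single runs are wide.

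Cells in which both chains of an integrin had signal were few. Signal at Itga4 and at Itgb1 occurred together in 6 cells, all at 0 hours, where the shares in each run would give 5.91. For Itga5 with Itgb1 it was 4 cells, also at 0 hours, where 3.51 would be given, and for Itgal with Itgb2 it was 0 cells where 1.52 would be given. With each gene detected in 10 to 42 cells, these numbers describe the sparsity of the data. Over single cells, the genes whose share of counts was most like that of a member (Pearson r over all cells of the 4 runs, as a description) were Gm14085 for Itga4 (r = 0.43), Patl1 for Itgb1 (0.56), Cntnap5b for Itgal (0.50) and Tnk2 for Cxcr4 (0.39). Gm14085, Patl1 and Cntnap5b were detected in only 7, 11 and 7 cells, so that few cells carry these r, and Tnk2 was detected in 55.

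The middle 150 bp of each region were searched on both strands for short motif cores. GGGAA (Ikaros) was in 4 of 16 member regions (25.0%) and in 39.2% of all regions. The members that held it were the Itgb1 intron region, the Itga5 region at 11.7 kb, the upstream Itgal region and the inner Cd44 region, so that 2 of the 5 regions whose time-points did not overlap held it and 3 did not. TGTGGT (RUNX) was in 6 of 16 (37.5%), against 14.7% of all regions, 5.53% of those within 1 kb of a start site and 20.4% of those from 1 to 50 kb. These 6 were the Itga4 and Cd44 start-site regions, the Itga5 region at 10.3 kb, both Itgal regions and the Cxcr4 region 42.7 kb downstream. CCGGAA (ETS) and CAGGTG (E proteins) were in 2 of 16 each (12.5%), against 14.6% and 9.39% of all regions, CCCNNGGG (EBF1) was in 2 of 16 against 14.3%, and GGGCGG (Sp and KLF factors) in 1 of 16 (6.25%) against 32.3%. The last is a core of GC-rich promoters, and the median GC content was 55.7% in near members and 65.3% in all near regions, and 54.0% in both far members and all far regions. Each of the 16 regions and the Ptk2 region matched the reference chromosomes at 1 place only, at 90% identity over 80% of its length.

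A wider list of adhesion and homing genes held 86 names, of which 85 were in the annotation and 55 had a region. It was chosen with earlier results of these data known, so the numbers below are a description. All genes, set beside it, mix near and far regions. The distance of the regions of the list was not taken into account, and its part was not tested. None of the 55 passed the test over all genes (edgeR), with 9 at an unadjusted p under 0.05 as lower at 24 hours and 1 as higher, beside 6.23% and 5.77% of all genes. In 19 of the 55 the 0-hour values both exceeded the 24-hour ones, and in 8 the reverse held, beside 21.9% and 21.5% of all genes. The median log2 change was −0.33, beside 0.04 over all genes. Those with the 9 lower values included Itgav, the αV chain (170, 63.2, 45.3 and 31.6 CPM in the order of the runs), Pxn, the focal adhesion adaptor paxillin (206, 265, 109 and 47.4), Cd47, an integrin-associated protein (177, 215, 90.6 and 39.5), and Selplg, the ligand of P-selectin (298, 253, 163 and 103). The signalling genes Lyn (411, 581, 145 and 324), Rac2 (319, 367, 154 and 158) and Rhoh (220, 202, 163 and 15.8) were also among them. So were the chemokine receptor gene Ccr2 (170, 177, 72.5 and 0, with the lowest adjusted p of the list at 0.13) and Rap1a, a small GTPase that activates integrins, which had 5 and 3 counts at 0 hours and 0 in both 24-hour runs. The 1 gene with a higher value was Crk, an adaptor of integrin signalling (49.6, 126, 109 and 300), and its runs overlapped.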

How the data were processed

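Single-cell ATAC-seq was analysed for 95 cells at 0 hours and 132 at 24 hours. The authors mapped reads to mm10 with Bowtie2, removed duplicates with Picard, ran HOMER on each bulk replicate and combined the peaks, kept peaks detected in at least 5 cells, and deposited whole-number counts per peak and cell without normalization. No value exceeds 2; the sources used here do not say how larger values were handled. The labels list more cells (48, 63, 75 and 73) than the matrix holds. The paper gives more peaks than the 20103 regions analysed here, and its cell numbers per time-point differ by 1 from those of the matrix. Bulk samples were not analysed here.

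For each C1 run, the counts of its cells were added up by region and by gene, and tested with edgeR 4.0.16 (R 4.3.3, quasi-likelihood test, TMM, no replicate term), with Benjamini-Hochberg adjustment over all 20103 regions or 9894 genes and a threshold of 0.05. The fits were also run on simulated counts that gave all regions the same spread, and no result here rests on them. Standard errors are the log2 change divided by the root of F. An exact permutation test of 2 runs against 2 cannot go below p = 0.333, so none was used. Shares have exact Clopper-Pearson intervals (95%), and intervals and the floor of 3 counts cover counting error only. Thinned shares are the expected shares at 837 counts per cell. No doublet caller was run, since capture sites had been inspected by eye. Alternatives were DESeq2 1.42.0, its size factors, run totals, cell numbers as offset, a filter of 10% of cells, detected or not, thinned cells, a replicate block and fits that leave out 1 run. Other distances or all transcript starts for assignment were used only to count member regions, and no fit was run with them. Copies were sought with BLAST 2.17.0.

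Described in full were, for each member, the region nearest the start site, the region detected in the most cells and regions whose time-points did not overlap. A gene was named as most alike only at r of at least 0.3 for members with signal in 10% of cells. Members and lists were chosen with earlier results of these data known. Coordinates are those of the deposited regions, taken as 1-based.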

Additional observations from a re-analysis of the deposited data

How the results depend on the processing

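No member passed the test as reported, with few counts per region and 2 runs per time-point, and for Itga5 and Itgal whether a call was made depended on the setting. Of the 23 estimates for member regions and genes, 10 kept their direction under all alternatives run for them (both Itga5 and both Itgal regions, the upstream Itga4 and the near Cd44 region, and the genes Itga4, Itga5, Itgal and Cd44), and 13 turned at least once, each of them without an adjusted p under the threshold. The cause was not tested. With cell numbers as offset, the median log2 change of all genes shifted from 0.04 to −0.33 and that of the member genes from −1.0 to −1.38.

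Among all regions, 3 were called as higher at 0 hours and 8 as higher at 24 hours. The calls were 0 and 0 with the size factors of DESeq2, with DESeq2 itself (1085 regions at an unadjusted p under 0.05), with values reduced to detected or not, and in thinned cells. They were 12 and 21 with run totals, 10 and 8 with signal in at least 10% of cells, and 3 and 0 with cell numbers as offset. Leaving out 1 run gave from 0 to 341 and from 1 to 456 calls, and the high values, 341 and 456, came without 24-hour run 1. Among all genes, 19 and 16 were called. These were 32 and 28 with the size factors of DESeq2, 0 and 0 with DESeq2 (560 genes at an unadjusted p under 0.05) and with cell numbers as offset, 10 and 14 as detected or not, 4 and 2 with signal in at least 10% of cells, and 1 and 2 in thinned cells. Leaving out 1 run gave from 0 to 246 and from 0 to 282. A fit without 1 run assumes that the run left alone varies like the others.

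Member regions called were 0 in all alternative fits except without 24-hour run 1, where the Itga5 region at 11.7 kb had a log2 change of −6.42. Member genes called were 1 with the size factors of DESeq2 (Itga5) and from 0 to 2 with 1 run left out (Itga5 and Itgal without 24-hour run 1), and 0 otherwise.

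The second runs were paired with each other only by number, so the runs were not taken as paired. The correlation of run differences over all regions was −0.011. With a median of 13 cells with signal per region, counting error is large, so this value cannot show whether runs belong together. With a replicate block, 2 and 9 regions and 7 and 5 genes were called, and no member was.

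Estimates that turned were, with cell numbers as offset, −0.43 for the Itga4 start-site region, −0.22 for the Itgb1 intron region and −0.18 for the Cxcr4 region at 277 bp. With signal in at least 10% of cells, the Itga4 start-site region gave −0.17. In thinned cells they were 0.44 for the Itgb1 first-exon region, 0.34 for the Itgb1 gene, 2.28 for the Cxcr4 region at 984.5 bp and −0.65 for that at 277 bp. As detected or not, they were −0.28 for the Itgb1 intron region and −0.10 for the Cxcr4 region at 277 bp, and with DESeq2 0.021 for the Cxcr4 gene. With 1 run left out, the ranges were −0.52 to 0.67 (Itga4 start site), −0.84 to 0.69 (Itgb1 first exon), −0.81 to 1.77 (Itgb1 intron), −1.04 to 0.16 (Itgb2 region), −4.08 to 0.10 (Cd44 at 34.1 kb), −1.68 to 0.39 (Cxcr4 at 42.7 kb), −3.71 to 0.47 (Cxcr4 at 984.5 bp), −0.062 to 1.13 (Cxcr4 at 277 bp), −4.30 to 3.07 (Cxcr4 at 1.08 kb), −0.031 to 1.84 (Cxcr4 at 22.8 kb), −1.12 to 0.005 (Itgb2 gene) and −1.10 to 0.60 (Cxcr4 gene).

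Within 10 kb, 10 regions were assigned to members, with 0 left for Itga5 and 1 for Itgal, and 17 within 100 kb or by all transcript starts. The mean share of cells over the member regions went from 12.1%, 5.85%, 4.79% and 2.43% in the 4 runs to 4.22%, 2.83%, 2.45% and 1.21% in thinned cells.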
